A study of Mus musculus with 13 samples.

Results

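The H3K4me3 mark was compared between Mtr knockout and wild-type hippocampus along the first 50 Mb of mouse chromosome 13, the stretch that holds Mtr, the gene deleted in this study. Members were all distinct H3K4me3 regions of chromosome 13 that start below 50 Mb (build mm9) and carry no histone gene name (Hist). This gave 190 of the 14006 regions in the table, the Mtr region included, and left out 37 regions of the histone clusters. They carry 187 gene names and run from 2810429I04Rik (chr13:3477101-3478248), 8.87 Mb on the lower-coordinate side of Mtr, to Iars (chr13:49776791-49778377), 37.4 Mb on the other side. Only 20 members lie on the lower-coordinate side, since Mtr sits near that end of the chromosome.

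H3K4me3, trimethylated lysine 4 of histone H3, marks the start sites of active genes. Mtr encodes methionine synthase, a cobalamin enzyme that passes a methyl group from folate to homocysteine to form methionine, and methionine feeds the methyl donor that histone methyltransferases use. A gene that is targeted in embryonic stem cells and then bred onto another background can carry along flanking sequence of the original strain, and a deleted gene can also alter its neighbours in cis, so the flank of a targeted gene is a usual place to look for differences that are not an effect of the lost protein.

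ChIP-seq of the mark in hippocampus of C57BL/6 mice gave 13 libraries in 4 groups. Wild types (genotype label MLML-WT) were given DMSO-PEG vehicle (n = 4) or SRT2104, an activator of the deacetylase SIRT1 (n = 3). Knockouts (genotype label TC;MLML_MTR-KO) had lost floxed exons 4 and 5 of Mtr through Cre under the Thy-1.2 promoter, and were labelled not-treated (n = 2) or were given SRT2104 (n = 4). Gavage ran from day 15 to day 36 at 50 mg/kg, with 9 administrations at 3 per week. The labels do not spell out MLML, which both genotypes carry, and TC stands only in the knockout label. Floxed exons 4 and 5 are listed for the wild-type libraries as well as for the knockouts. A chromosome segment that both genotype labels share would give no difference between knockout and wild type, so shared and absent segments cannot be told apart here. No label says that the untreated knockouts received vehicle, so gavage and genotype cannot be told apart where those libraries enter. Column names give the sex: both untreated knockouts, SRT2104 knockouts 1 and 3 and SRT2104 wild type 1 were female, and the other 8 libraries male. Nothing says that libraries came from separate mice, so a p-value here speaks only of library-to-library spread, which may be technical.

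Promoter sequences help to show what kind of start sites these regions sit on, and 5 are printed because the results below turn on them: the deleted gene, its nearest neighbour on the higher-coordinate side, the member with the smallest p between genotypes, a tubulin gene that was highest in untreated knockouts, and the member with the smallest p between the sexes. Each runs from 250 bases before to 50 bases after the start in RefSeq (GRCm38.p6, a later build than that of the regions) and is written 5′ to 3′ on the gene's own strand, with CG dinucleotides in capitals. The positions are chr13:12258064-12258363 on the minus strand for Mtr, chr13:12340683-12340982 (minus) for Actn2, chr13:43480924-43481223 (minus) for Ranbp9, chr13:34077959-34078258 (minus) for Tubb2a and chr13:18717042-18717341 (plus) for Vps41.
Mtr: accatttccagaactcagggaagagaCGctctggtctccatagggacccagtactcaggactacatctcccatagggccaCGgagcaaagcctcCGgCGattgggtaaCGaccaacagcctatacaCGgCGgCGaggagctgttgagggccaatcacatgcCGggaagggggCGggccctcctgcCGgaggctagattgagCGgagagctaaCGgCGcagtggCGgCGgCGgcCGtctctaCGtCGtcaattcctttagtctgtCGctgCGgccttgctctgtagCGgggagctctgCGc
Actn2: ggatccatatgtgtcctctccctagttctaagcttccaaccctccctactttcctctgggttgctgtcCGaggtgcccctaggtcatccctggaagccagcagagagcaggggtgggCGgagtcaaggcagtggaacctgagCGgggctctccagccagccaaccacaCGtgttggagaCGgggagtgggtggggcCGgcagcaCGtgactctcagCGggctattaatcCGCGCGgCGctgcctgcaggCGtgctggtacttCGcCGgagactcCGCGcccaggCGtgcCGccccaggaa
Ranbp9: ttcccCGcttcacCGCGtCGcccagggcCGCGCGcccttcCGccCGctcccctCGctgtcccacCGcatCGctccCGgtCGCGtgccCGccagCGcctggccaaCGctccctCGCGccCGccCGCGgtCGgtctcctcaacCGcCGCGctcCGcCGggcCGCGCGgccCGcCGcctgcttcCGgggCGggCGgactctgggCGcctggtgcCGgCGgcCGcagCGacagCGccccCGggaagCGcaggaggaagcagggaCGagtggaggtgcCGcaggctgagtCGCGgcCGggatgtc
Tubb2a: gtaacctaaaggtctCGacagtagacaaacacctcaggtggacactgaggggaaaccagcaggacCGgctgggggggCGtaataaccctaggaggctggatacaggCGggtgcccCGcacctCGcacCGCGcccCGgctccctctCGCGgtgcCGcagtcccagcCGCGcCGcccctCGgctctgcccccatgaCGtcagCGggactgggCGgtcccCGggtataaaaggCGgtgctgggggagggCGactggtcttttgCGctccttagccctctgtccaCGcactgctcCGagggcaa
Vps41: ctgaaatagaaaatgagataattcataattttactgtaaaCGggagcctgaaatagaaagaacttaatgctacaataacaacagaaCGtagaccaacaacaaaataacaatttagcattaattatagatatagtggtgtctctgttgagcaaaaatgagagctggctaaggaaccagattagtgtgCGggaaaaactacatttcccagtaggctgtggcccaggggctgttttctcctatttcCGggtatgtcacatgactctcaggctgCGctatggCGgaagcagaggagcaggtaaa
The Mtr promoter holds 24 CG dinucleotides in 300 bases, and those of Actn2, Tubb2a and Ranbp9 hold 19, 25 and 50. Vps41 has 6. A promoter could be matched to 155 of the 187 gene names, with a median of 20 CG dinucleotides, against 21 over the 10850 promoters of genes anywhere in the table and 7 over all 27025 RefSeq promoters. GGGCGG, searched on both strands, occurred in 65.2% of the matched promoters, 66.1% of those of the table and 35.9% of all promoters, and in Mtr, Actn2, Ranbp9 and Tubb2a. CCAAT occurred in 34.8%, 38.2% and 37.9% of the same sets and is found in Mtr. CACGTG occurred in 5.81%, 10.3% and 7.24% and is found in Actn2. TATAAA occurred in 9.03%, 6.66% and 14.2%, and in Tubb2a it begins 29 bases before the start. None of these 4 motifs overlaps another by its letters, and Vps41 holds none of them in this window. The 12 matched genes with a mean level under 100 (the highest region where a gene has several) had a median of 6.5 CG dinucleotides, and the 143 at 100 or more had 21.

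Levels are normalised read counts per region, reads divided by 1 factor per library, and differences are given after log2(value + 1), a scale that understates changes of low regions. Libraries held 3963196 to 9009109 reads in regions, of which 1.40% to 1.42% fell in the members, with a median of 280.5 to 631 reads per member. Markers of hippocampal excitatory neurons were listed for 8 of 8 genes, oligodendrocyte markers for 4 of 5, astrocyte markers for 4 of 4, microglial markers for 1 of 3, choroid plexus markers for 2 of 3, and genes of other organs for 0 of 3. Thy1, whose promoter drives Cre, ranged from 1042 to 1310 in the 6 knockouts and from 588 to 778 in the 7 wild types, a log2 difference of 0.84 (adjusted p = 1.2e-05, limma). It was the only region of the whole table called between the genotypes. On the first principal component of autosomal regions (27.2% of the variance) the untreated knockouts lay at 12.1 and 21.6 and wild-type vehicle replicate 3 at 17.2, and the other 10 libraries between -9.27 and -0.717. Over the 190 members alone the same 3 libraries stood apart, at 2.24, 1.49 and 1.70 against -0.946 to 0.388. Calls that rest on wild-type vehicle replicate 3 are given with and without it; the untreated knockouts are a whole group and cannot be left out of the comparisons they define.

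As a set the members were ordinary H3K4me3 regions. Their median length was 1524.5 bp against 1484 bp over the table, their median level 524 against 526, and their median level per kb 363 against 360. The highest levels were at Cdk13 (1754, a kinase that phosphorylates RNA polymerase II), Atxn1 (1640, the ataxin-1 gene) and Sox4 (1596, a transcription factor of neural progenitors). Levels of 17 members (8.95%) were under 100, against 10.1% of all regions. The lowest was Fgd3 at 20.2. The SD over the 13 libraries had a median of 0.093 on the log2 scale, against 0.092 over the table. It was smallest at the region shared by Tdp2 and Acot13 (0.034).

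Long gaps between members fell on gene-poor stretches and on gene families of other organs. Between Nrsn1 and 2610307P16Rik, 3.61 Mb held no region, and 23 of the 24 protein-coding genes that RefSeq places there are of the prolactin family (Prl), which is expressed in pituitary and placenta. The 1.27 Mb between Hist1h4i, one of the histone regions left out, and 4930586N03Rik span 37 protein-coding genes, mostly vomeronasal receptors (Vmn1r). Next to the deleted gene, 1.84 Mb between Chrm3 and Ryr2 held no region and no other protein-coding gene. Distances along the chromosome are therefore sampled unevenly.

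The region at Mtr itself (chr13:12349305-12350575) was present in every library of both genotypes. It lies in a promoter window, so its level does not check the deletion of exons 4 and 5. Vehicle wild types had 488, 493, 489 and 486, and SRT2104 wild types 505, 507 and 466. Untreated knockouts had 510.2 and 427, and SRT2104 knockouts 479, 463, 438 and 493. The 4 vehicle wild types were close together, and the knockouts spread to both sides of the wild-type range. Of the 6 knockouts, 3 lay below the lowest wild type, those at 479 and 493 within the range, and the 1 at 510.2 above all wild types. Knockouts averaged 468 ± 32.0 (SD, n = 6) and wild types 491 ± 13.5 (n = 7), a log2 difference of -0.069 (SE 0.045, 95% interval -0.16 to 0.023) that did not pass the test (limma, adjusted p = 0.998). The value lay between -0.095 and -0.043 under all 28 settings tried, with adjusted p between 0.675 and 1.00.

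Within 1 Mb there were 8 regions, Mtr included, and none passed the test between genotypes. Ryr2 (chr13:12197350-12199415), the ryanodine receptor that releases calcium from the endoplasmic reticulum, lies 0.152 Mb on the lower-coordinate side. Its levels were 716, 759.8, 807 and 775 in vehicle wild types, 779, 754 and 790.1 in SRT2104 wild types, 847 and 777 in untreated knockouts, and 834, 768, 792 and 788 in SRT2104 knockouts. All groups overlapped, and the log2 difference was 0.060 (SE 0.040, adjusted p = 0.998, limma).
Actn2 (chr13:12432331-12433393), an alpha-actinin of the postsynaptic density and of muscle, is the next region on the other side, 0.083 Mb away. It had 206, 231, 229.8 and 195 in vehicle wild types, 238, 198 and 227 in SRT2104 wild types, 211 and 213 in untreated knockouts, and 228, 219.7, 246 and 208 in SRT2104 knockouts. No group stood apart, with a log2 difference of 0.022 (95% interval -0.12 to 0.17). Per kb, Actn2 (206) stood below Mtr (378) and Ryr2 (379.5).
Heatr1, which acts in ribosomal RNA processing, averaged 610.4 ± 26.6 in knockouts (n = 6) and 612 ± 47.3 in wild types (n = 7). Lgals8, a galectin that binds glycans exposed on damaged endosomes, averaged 673 ± 30.6 and 685 ± 17.1. Edaradd, an adaptor of the ectodysplasin receptor, averaged 213 ± 19.6 and 209 ± 28.1. All of these differences were smaller than the SD within either genotype. Ero1lb, an oxidase of the endoplasmic reticulum that drives disulphide formation, averaged 595 ± 24.4 and 578 ± 32.5. Gpr137b-ps averaged 251 ± 15.8 and 252 ± 13.9; it is a pseudogene, so reads of its parent gene could be placed on it and its level is uncertain. The 8 log2 differences ran from -0.069 at Mtr to 0.060 at Ryr2, with a median half-width of their 95% intervals of 0.096. These intervals are not adjusted for the 14006 regions tested. A call at a typical region therefore needed a larger difference than that half-width, and smaller shifts near Mtr could have been missed.

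**Figure D1:**
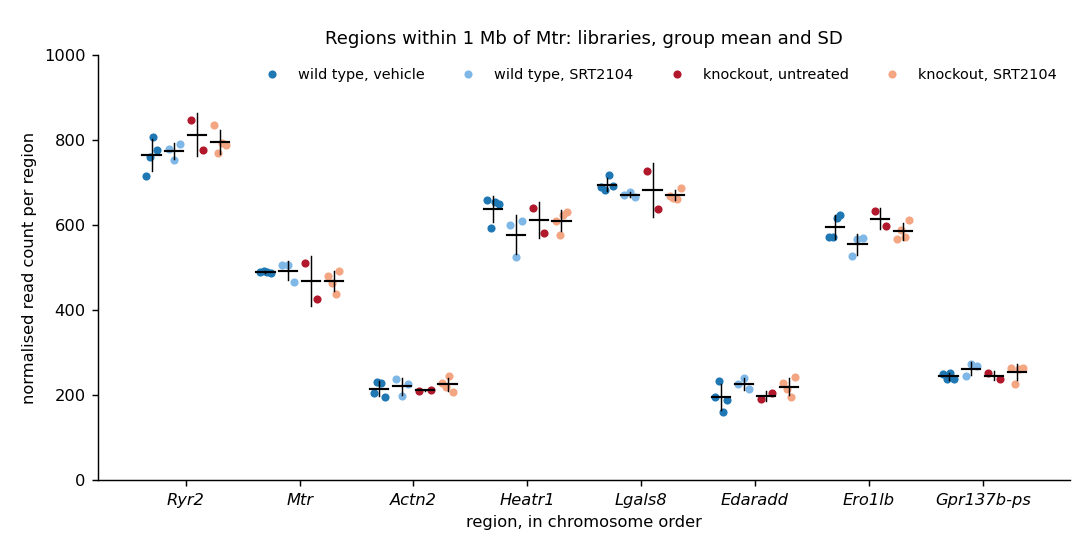
Normalised read count per region (vertical axis, from 0) at the 8 regions within 1 Mb of Mtr in chromosome order, with 1 point per library coloured by group, and the group mean and SD as black bars. Knockout and wild-type libraries overlap at each region, Mtr included, where knockouts average 468 and wild types 491.

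Along the whole stretch no member was called between the 6 knockouts and 7 wild types (0 of 190, limma with Benjamini-Hochberg adjustment over all 14006 regions, of which 0.00714% were called). At an unadjusted p under 0.05, 4 members passed, all higher in knockouts, where 2.24% of all regions did (1.86% higher, 0.378% lower). With limma this count was 12 without wild-type vehicle replicate 3 (5.4% of all regions). Without SRT2104 knockout 2 or 3 it was 7, where 515 and 350 of the 14006 regions passed. It was 12 with the mean of group means (7.22%) and 14 with SRT2104 and sex in the model (8.13%). On recovered reads edgeR called 0 members (0.0357% of all regions) and 8 at an unadjusted p under 0.05 (2.8%). DESeq2 called 0 (0.1%) and 7 unadjusted (2.33%), and limma voom 0 (0.0286%) and 12 unadjusted (3.88%). In no member did the values of the genotypes separate without overlap, and 0.0428% of all regions did so. The median log2 difference of the members was 0.022 and that of all regions 0.022, and 120 of the 190 were above 0, against 67.9% of all regions. With TMM scaling, which sets the typical difference near 0 by construction, 96 members were above 0.

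By distance from Mtr, the median log2 difference was 0.010 for the 8 regions under 1 Mb, 0.021 for 20 regions at 1 to 5 Mb, 0.0069 for 34 at 5 to 10 Mb, 0.015 for 37 at 10 to 20 Mb and 0.026 for 91 beyond 20 Mb. In this comparison, none of these bands of members departed from the median of all regions by as much as 0.02. With the histone regions added, the median was -0.0085 at 5 to 10 Mb (48 regions), a larger departure, and 0.011 at 10 to 20 Mb (60 regions). The medians of the 18 other autosomes ranged from 0.0176 to 0.0266 and that of the 313 regions on the rest of chromosome 13 was 0.018. Chromosome 13 as a whole, histone regions included, had 0.0168, just below all the others. The flank with its histone regions had 0.0152. The SD of the log2 differences was 0.041 under 1 Mb and 0.069 beyond 20 Mb, and 0.081 over the other autosomes. On the lower-coordinate side (20 regions) the median was 0.019 and on the other side (169 regions) 0.023. For untreated knockouts against vehicle wild types, the whole of chromosome 13 was again just below the other autosomes (0.0231 against 0.0233 to 0.0391). With SRT2104 in both genotypes it lay among them (0.0295 against 0.0248 to 0.0417).

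**Figure D2:**
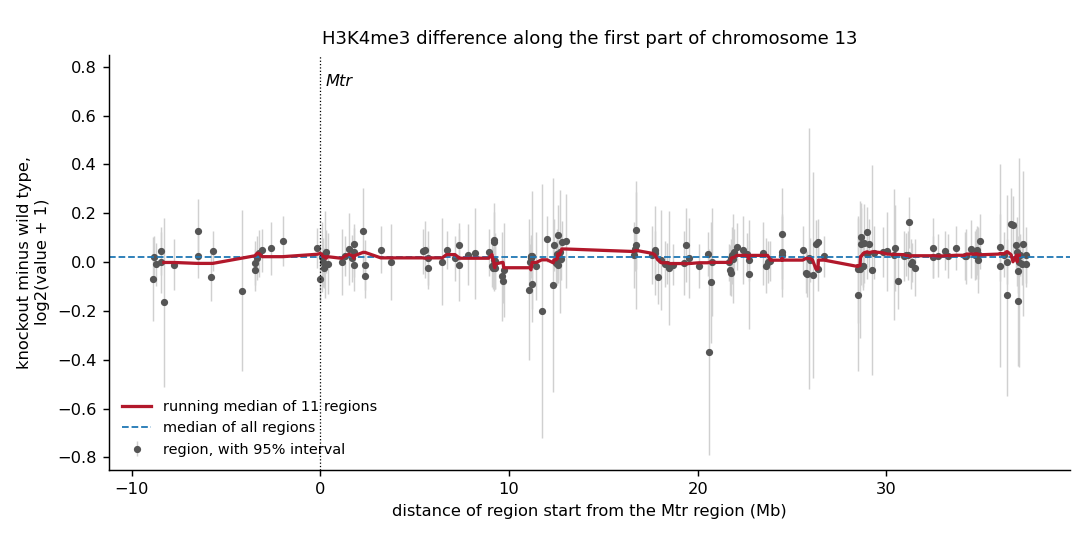
Log2 difference of knockout minus wild type (vertical axis, log2(value + 1)) against the distance of each region's start from the Mtr region in Mb, for the 190 members. Points are regions with their 95% interval, the red line the running median of 11 consecutive members and the dashed line the median of all 14006 regions. Points lie around the dashed line at 0.022 on both sides of Mtr, and the widest departure, -0.37, is at Serpinb1a.

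A running median over 11 consecutive members was used to look for a stretch that moved together. Histone regions were skipped in the flank, while on the other autosomes no region was skipped. Relative to the median of all regions the running median ranged from -0.054 (the stretch from Mir1983 to Scgn, 9.64 to 11.7 Mb from Mtr, which runs across skipped histone regions) to 0.032 (Tdp2 to A330102I10Rik, 12.6 to 16.8 Mb). Its 11 windows that hold Mtr lay between -0.0064 and 0.014. On the other autosomes the same measure ranged from -0.49, on chromosome 17, to 0.064, on chromosome 15, and its 1st and 99th percentiles over 12775 windows were -0.049 and 0.039. The lowest of the 180 overlapping windows of the flank, 9.64 Mb or more from Mtr, was just outside these percentiles. The windows around Mtr were inside them. For untreated knockouts against vehicle wild types the flank reached 0.11 (A330048O09Rik to Fgd3, 36.0 Mb or more from Mtr; 99th percentile 0.077). With SRT2104 in both genotypes it reached -0.096 (Zkscan8 to Hfe, 9.27 Mb or more; 1st percentile -0.082). Between SRT2104 and vehicle wild types, the stretch from Mir1983 to Scgn was the highest of the flank, at 0.101 (99th percentile 0.109).

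Single libraries were looked at in the same way, since a segment carried by some animals only could be lost in a mean. Each library was set against the mean of the 13 and centred on regions outside chromosome 13. The running median over the flank ranged from -0.12, in wild-type vehicle replicate 4, to 0.16, in SRT2104 wild type 1, the shallowest library. In 7 of 13 libraries some window of the flank lay outside the 1st to 99th percentile of that library's other autosomes, and in 0 of 13 did a window that holds Mtr, where the range was -0.054 to 0.070. The flank holds 180 overlapping windows, and by definition some windows of the other autosomes lie outside these limits too. On the other autosomes single libraries reached -1.89, in untreated knockout 2 on chromosome 17, and 0.62, in wild-type vehicle replicate 4 on chromosome 17. The median of the 8 regions under 1 Mb lay between -0.053 (untreated knockout 2) and 0.066 (SRT2104 wild type 1). No library of either genotype reached the chromosome 17 values near Mtr. Those values are the extremes over all other autosomes, so this comparison cannot decide on a smaller shift.

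**Figure D3:**
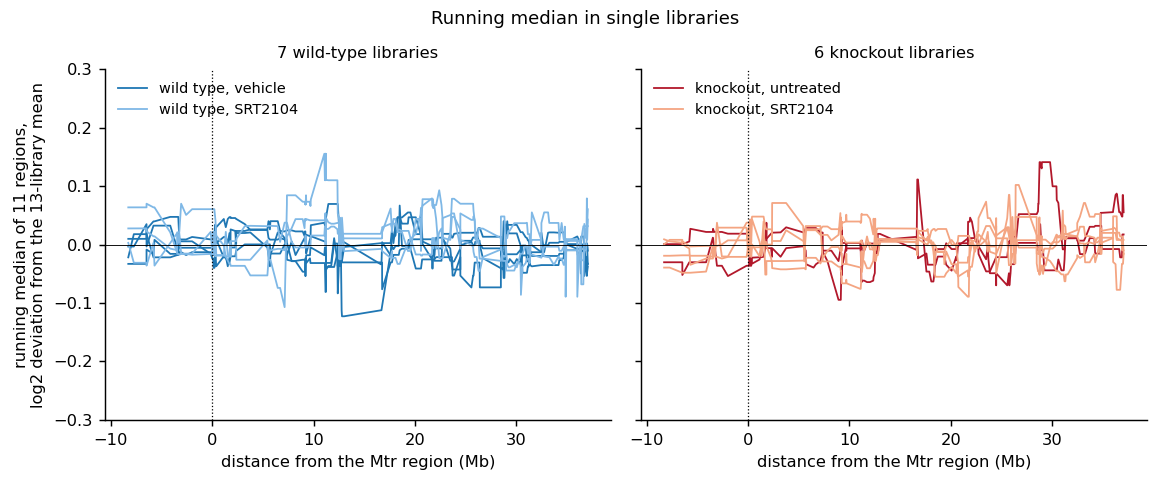
Running median of 11 consecutive members (vertical axis, log2 deviation from the mean of 13 libraries) against distance from Mtr in Mb, with 1 line per library, wild types on the left and knockouts on the right. Lines of both genotypes stay between -0.12 and 0.16, and within -0.054 to 0.070 in windows that hold Mtr (dotted line); straight stretches cross gaps without regions.

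**Figure D4:**
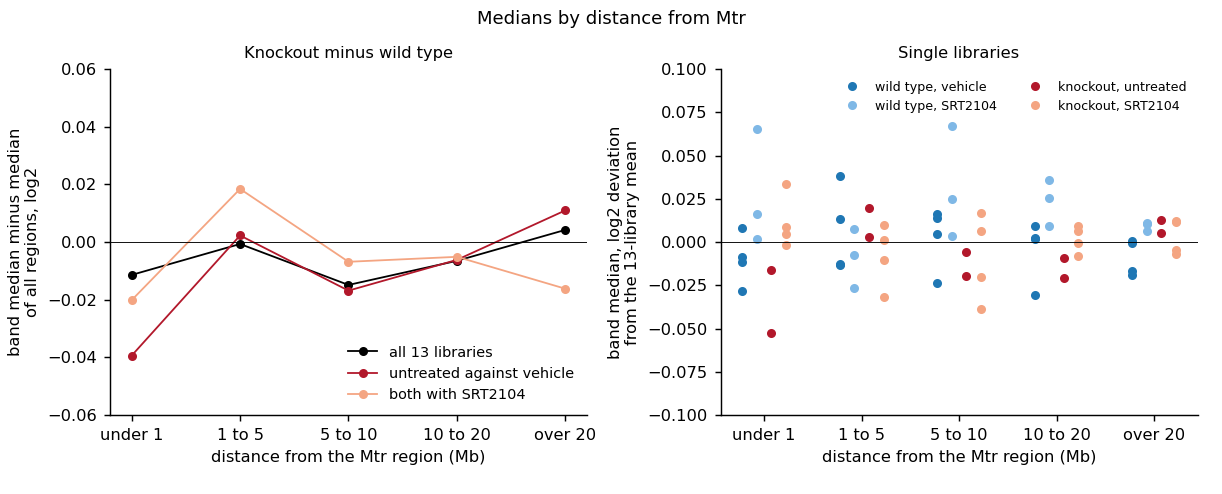
Left, the median log2 difference of each distance band minus the median of all regions for the 3 genotype comparisons; right, the band median of each library as log2 deviation from the mean of 13 libraries, with 1 point per library coloured by group. On the left all bands lie within 0.04 of 0, and on the right libraries of both genotypes overlap in each band, from -0.053 to 0.067.

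The 4 members with an unadjusted p under 0.05 were Ranbp9, the region of Fam120aos and Fam120a, Elovl2 and Phf2, all over 20 Mb from Mtr. Ranbp9, a scaffold protein of a ubiquitin ligase complex, lies 31.2 Mb away (chr13:43574631-43577232). Vehicle wild types had 1201, 1227, 1233 and 1325, SRT2104 wild types 1122, 1259 and 1173, untreated knockouts 1574 and 1347, and SRT2104 knockouts 1336, 1218, 1338 and 1396. Of the 6 knockouts, 5 stood above the highest wild type and 1 within the wild-type range. Knockouts averaged 1368 ± 117 (n = 6) and wild types 1220.0 ± 64.4 (n = 7), a log2 difference of 0.16 (SE 0.051, adjusted p = 0.998, limma). Over all settings the adjusted p ranged from 0.0794 to 1.00, so it was never called.

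Phf2 (chr13:48965108-48967135) encodes a histone demethylase whose PHD finger binds H3K4me3 itself. It had 1078, 1076, 1037 and 1123 in vehicle wild types, 825, 986 and 1025 in SRT2104 wild types, 1298 and 1132 in untreated knockouts, and 1226, 966, 1068 and 1138 in SRT2104 knockouts. The highest values were in knockouts and the lowest in a wild type, but the groups overlapped (log2 difference 0.16, SE 0.070, adjusted p = 0.998, limma). The region shared by Fam120aos and Fam120a, an RNA-binding protein, lies next to it, 36.7 Mb from Mtr, and averaged 1333 ± 125 in knockouts and 1199 ± 85.1 in wild types (log2 difference 0.15, SE 0.057). Klf6 region 1, at a gene for a zinc-finger transcription factor, averaged 319.8 ± 15.4 and 294 ± 30.0. The stronger Klf6 region 2 averaged 1082 ± 60.5 and 1062 ± 47.7, a log2 difference of 0.026. Eef1e1, a component of the aminoacyl-tRNA synthetase complex, averaged 509.7 ± 19.1 and 481 ± 27.8.

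Elovl2, which elongates polyunsaturated fatty acids, had 419, 398, 475 and 413 in vehicle wild types, 399, 416 and 406 in SRT2104 wild types, 478 and 478 in untreated knockouts, and 483, 433, 419.6 and 439 in SRT2104 knockouts. Knockouts stood above most wild types and wild-type vehicle replicate 3 lay among them, with a log2 difference of 0.12 (SE 0.049, adjusted p = 0.998, limma). Lrrc16a, a regulator of actin capping, averaged 809 ± 30.2 in knockouts and 759 ± 54.2 in wild types. Dcdc2a, a doublecortin-family microtubule protein, averaged 428 and 404.

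The lower members with the smallest p, besides Mtr, had no unadjusted p under 0.05. Serpinb1a, an inhibitor of neutrophil proteases, averaged 61.7 ± 15.0 in knockouts and 80.8 ± 23.4 in wild types (log2 difference -0.37, 95% interval -0.79 to 0.053). With each library left out in turn it ranged from -0.48 (without wild-type vehicle replicate 3) to -0.22 (without untreated knockout 2). Zfp184, a zinc-finger gene, averaged 579 ± 35.0 and 610.4 ± 29.1. Psma2, a subunit of the proteasome core, averaged 736 ± 41.1 and 765 ± 34.8. At both genes the values of the genotypes overlapped. Pitrm1, a mitochondrial peptidase, averaged 477 ± 23.8 and 497 ± 35.8, and Phactr1 region 3, at a gene for an actin and phosphatase regulator, 335 ± 17.9 and 354 ± 27.2. Phactr1 regions 1 and 2 went the other way, with log2 differences of 0.031 and 0.057. Btn1a1, a milk fat globule protein, averaged 347 ± 19.9 and 369.7 ± 17.6, and Susd3 89.7 ± 18.6 and 98.3 ± 8.30 (log2 difference -0.16, and -0.021 without untreated knockout 1).

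Genotypes were next compared within treatment, in libraries that the 2 comparisons do not share. Untreated knockouts against vehicle wild types gave 0 called members (0.00714% of all regions called, limma) and 24 at an unadjusted p under 0.05, where 9.14% of all regions passed. Without wild-type vehicle replicate 3 it was 39 (16.3%). Of the 24, 16 were higher (6.2% of all regions) and 8 lower (2.94%) in knockouts. SRT2104 knockouts against SRT2104 wild types gave 0 called members (0.00714%) and 12 at an unadjusted p under 0.05, where 6.2% of all regions passed. This count was 4 without SRT2104 wild type 1 (2.13%), 5 without SRT2104 knockout 1 (2.78%) and 19 without SRT2104 wild type 3 (10%). Under 1 Mb from Mtr, none of the 8 regions passed even the unadjusted threshold in either comparison, and their median log2 differences were -0.0080 and 0.014. Relative to the median of all regions, 90 of the 190 members had the same sign in both comparisons, against 45.9% of all regions. With SRT2104, Nkapl had the smallest p of the higher members, at 339, 374, 374 and 379 in knockouts and 319, 289.7 and 327 in wild types. The groups did not overlap, as in 6.8% of all regions, and the log2 difference of 0.23 (SE 0.073) did not pass the test (adjusted p = 0.780, limma). 4930586N03Rik had 44.6, 64.2, 64.0 and 61.0 in knockouts and 84.8, 73.9 and 78.4 in wild types, again without overlap (-0.44, SE 0.17, adjusted p = 0.780, limma). In the untreated comparison 4930586N03Rik went the other way, higher in knockouts by 0.24, also without overlap, as in 13.2% of all regions. At Nkapl the authors' deposited log2 fold, which follows the untreated comparison, was -0.093, also the other way.

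Tubb2a and Tubb2b, a pair of beta-tubulin genes of neurons, had the smallest p of the higher members in the untreated comparison. They lie 21.8 and 21.9 Mb from Mtr with 50.4 kb between their regions (chr13:34168078-34170317 and chr13:34220757-34222885), and being near-identical copies in their coding parts they may share reads. Tubb2a had 749.7, 806, 828 and 768 in vehicle wild types, 891, 868 and 836 in SRT2104 wild types, 985 and 905 in untreated knockouts, and 770.1, 819, 779 and 777 in SRT2104 knockouts. Both untreated knockouts stood above all other libraries, and SRT2104 wild types above all vehicle wild types.
Untreated knockouts averaged 945 ± 57.0 (n = 2) and vehicle wild types 788 ± 35.8 (n = 4), a log2 difference of 0.26 (SE 0.060, adjusted p = 0.161, limma). With SRT2104 the difference between genotypes was -0.14 (SE 0.053, adjusted p = 0.780, limma). Tubb2b had 617, 641, 752 and 649 in vehicle wild types, 778, 759 and 675 in SRT2104 wild types, 864 and 783 in untreated knockouts, and 635, 672, 697 and 585 in SRT2104 knockouts. It followed the same order of groups, and wild-type vehicle replicate 3 stood above the other 3 vehicle libraries. The log2 difference between untreated knockouts and vehicle wild types was 0.31 (SE 0.081, adjusted p = 0.208, limma). DESeq2 called Tubb2a alone among the members here (adjusted p = 0.0444; 0.178% of all regions), and limma fitted to the 2 groups only called Tubb2b (adjusted p = 0.0354; 0.336%).

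Both untreated knockouts are female and all vehicle wild types male, so sex and genotype cannot be told apart in that comparison. The values of libraries that stand apart moved with it too. Without wild-type vehicle replicate 3, which lies with the untreated knockouts on the first principal component, limma called 11 members (8 higher, 3 lower) and 564 regions of the whole table (4.03%). The 8 higher were Chrm3, Fam65b, Nrsn1, Tubb2a, Tubb2b, Nedd9 region 1, Phactr1 region 1 and Wnk2, and the 3 lower 2810429I04Rik, Serpinb1a and Bmp6. Without that library the log2 difference was 0.29 at Tubb2a (adjusted p = 0.00831, limma), 0.37 at Tubb2b (adjusted p = 0.00445, limma), -1.18 at Serpinb1a (adjusted p = 0.00146, limma) and -0.76 at Bmp6 (adjusted p = 0.00556, limma). Chrm3, a muscarinic acetylcholine receptor, lies 1.99 Mb from Mtr, the closest of them (log2 difference 0.24, adjusted p = 0.0355 in limma without that library). The part of this library in the calls was not tested.

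Serpinb1a had the lowest log2 difference between untreated knockouts and vehicle wild types. Its levels were 111, 102, 47.6 and 91.5 in vehicle wild types, 75.8, 54.8 and 83.5 in SRT2104 wild types, 53.9 and 35.8 in untreated knockouts, and 71.8, 77.4, 64.0 and 67.6 in SRT2104 knockouts. Wild-type vehicle replicate 3 lay with the untreated knockouts, below the other 3 vehicle libraries, which stood above 91. The log2 difference was -0.92 (SE 0.27, adjusted p = 0.311, limma). Bmp6, a secreted ligand of the bone morphogenetic protein family, showed the same split, with 539, 657, 320.4 and 549.8 in vehicle wild types, 411, 453 and 478 in SRT2104 wild types, 349 and 336 in untreated knockouts, and 661, 468, 489.7 and 524 in SRT2104 knockouts. The 3 lowest of the 13 were the untreated knockouts and wild-type vehicle replicate 3. These genes were among the 5 of mean level at least 50 with the largest SD over libraries, together with Dsp, a desmosome protein, Tfap2a region 2, at a gene for a transcription factor of neural crest, and Adarb2, an RNA-binding protein of the editing enzyme family. At Dsp the same 3 libraries and SRT2104 wild type 2 were the 4 lowest, at 349, 213, 246 and 306 against 403 to 573 in the others. At Adarb2 untreated knockout 2 (216) and wild-type vehicle replicate 3 (256) were the 2 lowest.

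**Figure D5:**
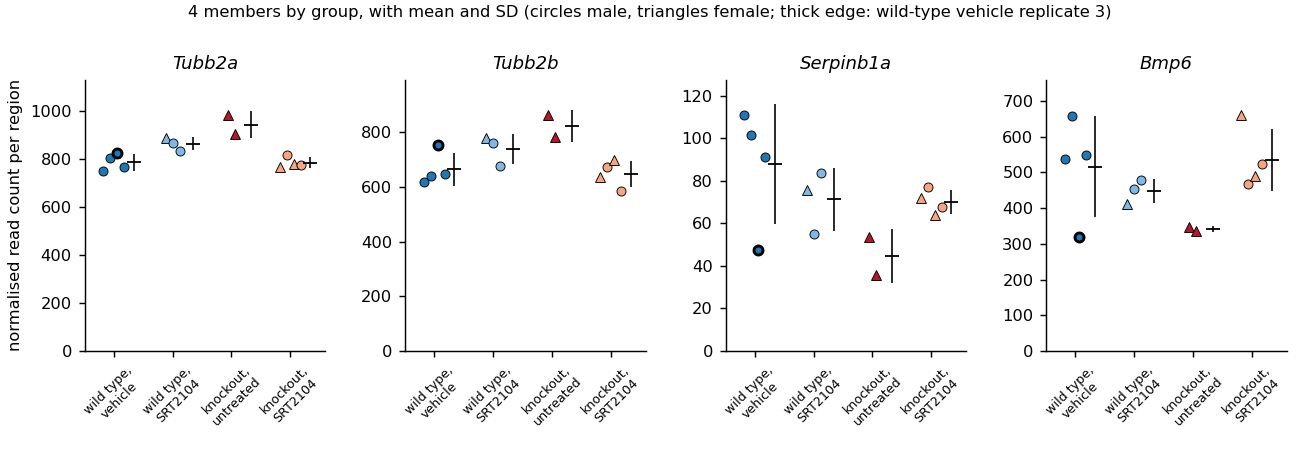
Normalised read count per region (vertical axis, from 0) of Tubb2a, Tubb2b, Serpinb1a and Bmp6 by group, with 1 point per library (circles male, triangles female, thick edge wild-type vehicle replicate 3) and the group mean and SD beside the points. Untreated knockouts are the highest at both tubulin genes, and at Serpinb1a and Bmp6 wild-type vehicle replicate 3 lies near them, at 47.6 and 320.4.

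SRT2104 libraries were compared with vehicle libraries in wild types and with not-treated libraries in knockouts. No member was called by limma in either genotype. In wild types, 0 members were called (0.00714% of all regions) and 28 had an unadjusted p under 0.05, where 13.4% of all regions did. Without SRT2104 wild type 1, the female and shallowest library of this comparison, 7 members had one (3.56%), and without wild-type vehicle replicate 4, 17 (9.85%). Gcnt2 region 3, at a glycosyltransferase gene, had 366, 336, 384 and 356 with vehicle and 431, 405 and 416 with SRT2104. The groups did not overlap, as in 14.4% of all regions (log2 difference 0.21, SE 0.068, adjusted p = 0.332, limma). Nrn1 region 1, at the gene for neuritin, a promoter of neurite growth, had 636, 656, 655 and 751 with vehicle and 936, 726 and 781 with SRT2104 (0.27, SE 0.083, adjusted p = 0.332, limma). The 936 is SRT2104 wild type 1, and without it the difference was 0.16. Elmo1 region 1, at a gene for an activator of Rac, went the other way, with 796, 829, 802 and 818 against 669, 656 and 765 (-0.22, SE 0.065, adjusted p = 0.332, limma). Jarid2 region 1, at a gene for a partner of Polycomb repressive complex 2, had 501, 497, 551 and 529.5 against 395, 469.8 and 479.9 (-0.22, adjusted p = 0.332, limma), and the difference was -0.13 without SRT2104 wild type 1.

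In knockouts, 0 members were called (0% of all regions) and 29 had an unadjusted p under 0.05, where 12.5% of all regions did (16 members without untreated knockout 1, against 7.86%). Tubb2a was lower with SRT2104 than in untreated knockouts by a log2 difference of -0.26 (SE 0.060, adjusted p = 0.134, limma), and Tubb2b by -0.35 (SE 0.081, adjusted p = 0.162, limma). Without wild-type vehicle replicate 3, which enters only the estimate of spread here, limma called Tubb2a, Tubb2b, Pom121l2 and Bmp6 (1.46% of all regions), with adjusted p of 0.0204 and 0.00998 at the tubulin genes. This comparison shares its untreated knockouts with the one above. No label says that these received vehicle, so SRT2104 and gavage cannot be told apart here. Both are also female, while the SRT2104 knockouts are of both sexes, and both stand apart on the first principal component. Pom121l2 had 197 and 205 in untreated and 266, 281, 293 and 248 in SRT2104 knockouts (0.43, SE 0.11, adjusted p = 0.183, limma). Net1 region 1, at a gene for an activator of RhoA, had 355 and 332 against 406, 423, 429 and 398 (0.27, SE 0.078, adjusted p = 0.234, limma). In both the untreated and treated libraries did not overlap, as in 21.7% of all regions. A fit of the 2 knockout groups alone called 6 members: Tubb2a and Tubb2b lower, and 2810429I04Rik, Net1 region 1, Pom121l2 and Bmp6 higher, among 363 regions of the whole table (2.59%).

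The difference of the genotype differences, with SRT2104 minus without, was called for 0 members (0% of all regions, limma), and 25 had an unadjusted p under 0.05 where 7.88% of all regions did. The count was 15 without SRT2104 knockout 1 (6.15%). Without wild-type vehicle replicate 1 or 4 it was 16, where 844 and 800 of all 14006 regions passed. It was -0.40 (SE 0.080, adjusted p = 0.132, limma) at Tubb2a and -0.50 (SE 0.11, adjusted p = 0.202, limma) at Tubb2b. DESeq2 called both, with adjusted p of 0.0133 and 0.0217, as 0.0928% of all regions. Without wild-type vehicle replicate 3, limma called 6 members (1.94% of all regions), with Tubb2a at -0.42 and Tubb2b at -0.56. At Mtr this difference was -0.0057 (SE 0.093).

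The sexes differed at no member in a model with genotype and SRT2104 (0 called, 0.0857% of all regions, limma), and 9 had an unadjusted p under 0.05, where 5.16% of all regions did. The count was 3 without SRT2104 wild type 1 (1.61%) and 18 without SRT2104 knockout 1 (8.42%). Without SRT2104 knockout 2 it was 16, where 1592 of all 14006 regions passed. Vps41, a subunit of the HOPS complex that tethers vesicles to lysosomes, had the smallest p and lies 6.46 Mb from Mtr. Females had 310.3 (SRT2104 wild type 1), 440.3 and 407 (untreated knockouts), and 316 and 365 (SRT2104 knockouts 1 and 3). Males ran from 372 to 442. The 3 females given SRT2104 stood below all males and the 2 untreated females within their range. Its log2 difference, female minus male, was -0.27 (SE 0.062, adjusted p = 0.251, limma), and with 1 coefficient per group -0.33 (adjusted p = 0.0487, limma), a call, as for 0.0928% of all regions. That fit compares the sexes only among libraries given SRT2104, since the vehicle wild types are all male and the untreated knockouts both female. Nrn1 region 1 was higher in females by a log2 difference of 0.22 (SE 0.055, adjusted p = 0.408, limma) and was called without SRT2104 knockout 2 (0.28, adjusted p = 0.0323, limma; 0.193% of all regions). A330102I10Rik region 2 had a difference of 0.44 (SE 0.12) and Serpinb6b, a serine protease inhibitor, one of -0.40 (SE 0.12), and neither passed the test. SRT2104 wild type 1 and SRT2104 knockout 1 were also 2 of the 3 shallowest libraries, and the part of depth was not tested.

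Members were also grouped by what their genes do. Transcription factors and chromatin regulators (18 of 21 listed genes had a region, 22 regions) had 0 called in knockout against wild type and a median log2 difference of 0.041, with 15 regions above the median of all regions. Sox4 averaged 1628 ± 80.3 in knockouts and 1568 ± 63.1 in wild types, and Rreb1, a zinc-finger repressor, 1261 ± 95.4 and 1216 ± 57.1. Genes of neuronal excitability, synapse and cytoskeleton (17 of 18 genes, 22 regions) had 0 called and a median of 0.029, with 16 above. Wnk2, a kinase that regulates chloride transporters, averaged 1109.9 ± 84.9 and 1056 ± 32.6, and Kif13a, a kinesin motor, 1005 ± 66.9 and 986 ± 63.6.
Metabolic enzymes (18 of 23 genes, 20 regions) had 0 called and a median of 0.012, with 9 above. Pfkp, a phosphofructokinase of glycolysis, averaged 1052 ± 37.4 and 1019 ± 43.6. Signalling and cell death genes (12 of 18 genes, 13 regions) had 0 called and a median of -0.0014, with 3 above. Ripk1, a kinase of necroptosis whose region is shared with Serpinb6a, averaged 719.6 ± 23.6 and 710.5 ± 20.8. Genes of RNA processing, translation and cell cycle (16 of 16 genes, 16 regions) had 0 called and a median of 0.029, with 9 above. The 15 regions listed for Mtr and genes that neighbour it, Mtr included, had 0 called and a median of 0.026, with 9 above. Chrm3 to Lyst are among these 15, and Gpr137b-ps is not. All regions together had a median of 0.022 and 1 call.

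For the same pathway elsewhere in the genome, 13 of 14 genes of the methionine and folate cycles had a region, 14 regions in all, with 0 called and a median of 0.0070. Mat2a, the catalytic subunit of methionine adenosyltransferase, averaged 1063 ± 60.5 in knockouts (n = 6) and 1048 ± 39.5 in wild types (n = 7). The region shared by Fastkd3 and Mtrr, the reductase that reactivates methionine synthase, lies on chromosome 13 too, 56.4 Mb from Mtr, and averaged 643 ± 61.8 and 665 ± 85.6. Both of these differences were smaller than the spread within a genotype.

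In the authors' deposited table, knockout against wild type gave an adjusted p under 0.05 for 0 of the 190 members and 4 of all regions, and an unadjusted p under 0.05 for 21 members, where 7.4% of all regions had one. The smallest adjusted p of a member in the authors' deposited table was 0.0683, at Tubb2a (log2 fold 0.26), and Mtr had a log2 fold of -0.063 there. For 190 of 190 members that fold lay within 0.02 of the log2 ratio between the means of untreated knockouts and of vehicle wild types, as a comparison of those groups, not of all 13 libraries, would give.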

How the data were processed

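The authors deposited 1 table of H3K4me3 signal per region (mm9) for 13 hippocampal libraries. Bowtie2, SAMtools, bedtools, MACS2 and DESeq2 stand in the submitters' processing notes without versions; the calling of regions and any input control: not given in the sources used here. Each deposited signal value is reads over a scaling factor, 1 per library: 100% were whole multiples within 0.001 reads. The authors' deposited log2 fold and p-value columns, per the file headers, are quoted only as theirs.

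Here, the 17212 lines were reduced to 14006 distinct regions. A minimum of 10 in 2 libraries removed 0 regions. Because values were scaled and not raw counts, limma 3.58.1 (trend, robust; R 4.3.3) on log2(value + 1) was the test, with genotype alone for knockout against wild type over all 13 libraries, 1 coefficient per group for comparisons within treatment or genotype, and genotype, SRT2104 and sex for the sexes, with Benjamini-Hochberg adjustment over all regions and a threshold of 0.05. Recovered reads entered edgeR 4.0.16, DESeq2 1.42.0 and voom as alternatives. Other alternatives were scaling, filter, pseudocount, left-out libraries and the replicate block. The fits were tested on simulated data. Replicates of a group differed by more than sampling noise (chi-square per degree of freedom 1.31 to 3.31 over 16 pairs).

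The regions, gene lists and tests were chosen with earlier results of these data known. Regions named are those under 1 Mb from Mtr, the 8 higher and 8 lower with the smallest p between genotypes, the 2 and 2 of each other comparison, the 5 with the largest SD at a mean of at least 50, the 3 highest of each list, and genes of the Mtr pathway outside. Others were chosen after their values were seen. Some of the genes outside that the rule names are not reported here.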

Additional observations from a re-analysis of the deposited data

Results flagged for a closer look

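Of 82 groups of 4 libraries at 41 named regions, 5 held a library far from the other 3, where chance gives about 5% of groups, or 4.1. At Heatr1, wild-type vehicle replicate 2 had a normalised read count of 592 and the others 648 to 659. At the region of Fam120aos and Fam120a the same library had 1149 and the others 1251 to 1268. At Gpr137b-ps, SRT2104 knockout 2 had 226 and the others 262 to 265. At Nkapl, SRT2104 knockout 1 had 339 and the others 374 to 379. At 4930586N03Rik the same library had 44.6 and the others 61.0 to 64.2.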

How the results depend on the processing

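In knockout against wild type 0 members were called by limma, edgeR, DESeq2 and voom, and between 0 and 0 when each library was left out. Over all regions the 1 call became 5 with TMM scaling, 4 when centred outside chromosome 13, 5 with edgeR, 14 with DESeq2, 4 with voom, 3 with SRT2104 in the model, 3 with the mean of group means and 1 to 6 without 1 library. For untreated knockout against vehicle, members called were 1 with DESeq2, 1 with the 2 groups only and 0 to 11 without 1 library. For SRT2104 in knockouts they were 6 with the 2 groups only and 0 to 4 without 1 library. For the difference of genotype differences they were 2 with DESeq2 and 0 to 6 without 1 library, and for sex 1 with group coefficients, an alternative chosen after seeing the data, and 0 to 1 without 1 library. The 11, 4 and 6 members called without 1 library in the untreated, knockout SRT2104 and difference comparisons were those without wild-type vehicle replicate 3, with 564, 205 and 272 regions of the table called; the cause was not tested. The 6 regions between genotypes and the 1 member for sex came without SRT2104 knockout 2. Without the 3 libraries that stand apart (chosen after seeing the data), 0 members and 1 region were called between genotypes. With the replicate block 0 members were called in every comparison and 1 region between genotypes; same-numbered libraries did not deviate together (r from -0.33 to 0.22 over 16 pairs, 3 of 13 libraries best with their own number). Depth limits the lowest members most, and regions with few reads have the widest intervals.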

Other observations

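Away from the flank, Ube2ql1 region 1, at a gene for a ubiquitin-conjugating enzyme-like protein, lies on chromosome 13 at 57.5 Mb from Mtr. It averaged 1099 ± 57.1 in knockouts (n = 6) and 946 ± 55.7 in wild types (n = 7), a log2 difference of 0.22 that did not pass the test (adjusted p = 0.206, limma).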
